A study of Mus musculus with 6 samples.

Results

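The genes described here are 9 regulators of the primitive streak and the early mesoderm: T (Brachyury), Mixl1, Gsc, Mesp1, Tbx6, Evx1, Lhx1, Cdx1 and Kdr. They were chosen by name from 41388 gene identifiers, as known genes of streak and mesoderm formation, with earlier results of these data known. The lists of other genes used below were also chosen with those results known. All 9 members were found in the count table. Of these, 6 had enough counts to be tested (T, Gsc, Tbx6, Evx1, Cdx1 and Kdr), among 14717 tested genes. Each of the 6 reached the count filter in all 3 libraries of both genotypes, so none of them passed only through the genotype in which it was higher.

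The cells were mouse induced pluripotent stem cells (iPSCs), which are body cells returned to a state like that of the early epiblast. The miR-34a-/- group and the wild-type group held 3 libraries each, one from each of 3 independently derived lines per genotype, all of the C57BL/6 strain. Both genotypes shared the same route: fibroblasts of E13.5 littermate embryos received mouse Oct4, Sox2 and Klf4 from pMX retroviruses, and each line grew from a single picked colony on irradiated fibroblast feeders. The labels give no chemical or growth factor treatment to induce differentiation, and they do not say which lines came from the same embryo, so p-values weigh the genotypes against the spread between lines only. Levels are in CPM (counts brought to a common library total), fold changes are log2 of miR-34a-/- over wild-type, and a gene was called when edgeR's adjusted p was under 0.05.

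In the embryo the primitive streak forms where epiblast cells receive Nodal, BMP, Wnt and FGF signals. Wnt3 acting through beta-catenin and LEF/TCF factors turns on T, and Nodal acting through Smads and Foxh1 turns on Gsc, Mixl1 and Lhx1 in the anterior streak. T then acts in the streak and the tail-end progenitors, and Mesp1 and Tbx6 mark mesoderm leaving the streak. Kdr (Flk1, the VEGF receptor) marks mesoderm that can form blood and vessels. Undifferentiated pluripotent cultures usually hold little of these transcripts.

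Total counts were 20877988, 29654855 and 8721581 in miR-34a-/- replicates 1 to 3, against 25698286, 8432597 and 16760545 in wild-type replicates 1 to 3. A count of 3 corresponded to 0.107 to 0.375 CPM, so the lowest members were near the limit of what could be counted. Every pair of libraries differed by more than sampling noise. Over all tested genes 50.5% were called, 26.5% higher and 24.0% lower in miR-34a-/-, and the median log2 fold change was 0.01. The deleted gene itself could not be used to check the genotypes: Mir34a (chromosome 4, 150068454 to 150068555) had 1, 0 and 0 counts in miR-34a-/- libraries, against 2, 0 and 0 in wild-type ones. Poly(A) libraries hold little of any microRNA hairpin. The pluripotency markers Pou5f1, Nanog and Sox2 were high in every library, Pou5f1 at 1183 ± 82.0 CPM in miR-34a-/- and 871 ± 71.8 CPM in wild-type (SD, n = 3 each), although counts from the retroviral copies of Oct4, Sox2 and Klf4 cannot be told apart from those of the cells' own genes.

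Of the 6 tested members, 2 were called lower in miR-34a-/- (T and Kdr), 1 was called higher (Tbx6) and 3 were not called (Gsc, Evx1 and Cdx1). The share called over all tested genes was 50.5%. Lines of the genotypes did not overlap in 4 of the 6, with miR-34a-/- lower in T (26.9% of tested genes) and higher in Gsc, Evx1 and Tbx6, where 56.0% of tested genes had no overlap in either direction. The median log2 fold change of the 6 was 0.06, near that of all genes, with calls in both directions. The sequences shown next are the 250 bases upstream of the annotated start of the 3 called members, printed because the LEF/TCF core was found in that of T and not in the others. They are from RefSeq, build GRCm38.p6, each 5′ to 3′ on the gene's own strand, and capitals mark the LEF/TCF core (CTTTGA or CTTTGT, searched on both strands).
T, chr17:8434173-8434422, plus strand: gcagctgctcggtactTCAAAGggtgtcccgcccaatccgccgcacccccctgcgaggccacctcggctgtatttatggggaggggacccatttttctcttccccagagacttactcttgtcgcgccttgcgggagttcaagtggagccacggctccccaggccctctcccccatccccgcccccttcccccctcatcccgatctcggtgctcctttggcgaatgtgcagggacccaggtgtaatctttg
Tbx6, chr7:126781233-126781482, plus strand: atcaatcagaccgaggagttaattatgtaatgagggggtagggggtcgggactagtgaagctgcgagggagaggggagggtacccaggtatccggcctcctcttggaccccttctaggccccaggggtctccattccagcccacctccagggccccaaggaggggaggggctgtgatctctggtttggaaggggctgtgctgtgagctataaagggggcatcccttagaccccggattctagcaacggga
Kdr, chr5:75978456-75978705, minus strand: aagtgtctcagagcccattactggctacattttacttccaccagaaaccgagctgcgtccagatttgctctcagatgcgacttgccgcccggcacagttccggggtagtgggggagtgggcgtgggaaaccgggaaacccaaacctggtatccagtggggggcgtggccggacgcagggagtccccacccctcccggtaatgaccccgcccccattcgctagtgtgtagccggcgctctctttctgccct

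T, the T-box factor that gives the streak and the notochord their identity, fell further than any other member. T (ENSMUSG00000062327, chromosome 17, 8434423 to 8442496, plus strand, mm10) was at 1.17, 0.930 and 1.84 CPM in miR-34a-/- replicates 1 to 3, against 5.41, 8.76 and 7.41 CPM in wild-type replicates 1 to 3. All 3 miR-34a-/- lines were low and all 3 wild-type lines were several-fold higher, with no overlap. These levels rest on 23, 26 and 15 counts in miR-34a-/-, against 132, 70 and 115 counts in wild-type. The means were 1.31 ± 0.472 CPM in miR-34a-/- and 7.19 ± 1.68 CPM in wild-type (SD, n = 3 each), which gave -2.55 on the log2 scale (SE 0.234, edgeR adjusted p = 7.7e-08), or 5.87-fold lower in miR-34a-/-. Only 23 of the 14717 tested genes (0.156%), T included, were called lower with a log2 fold change at or below that of T. No other member differed by a log2 fold change of 1 or more and was called, against 10.3% of tested genes that did in either direction. The call on T held under all 17 alternative settings tried, with values from -2.77 to -2.31.

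**Figure D1:**
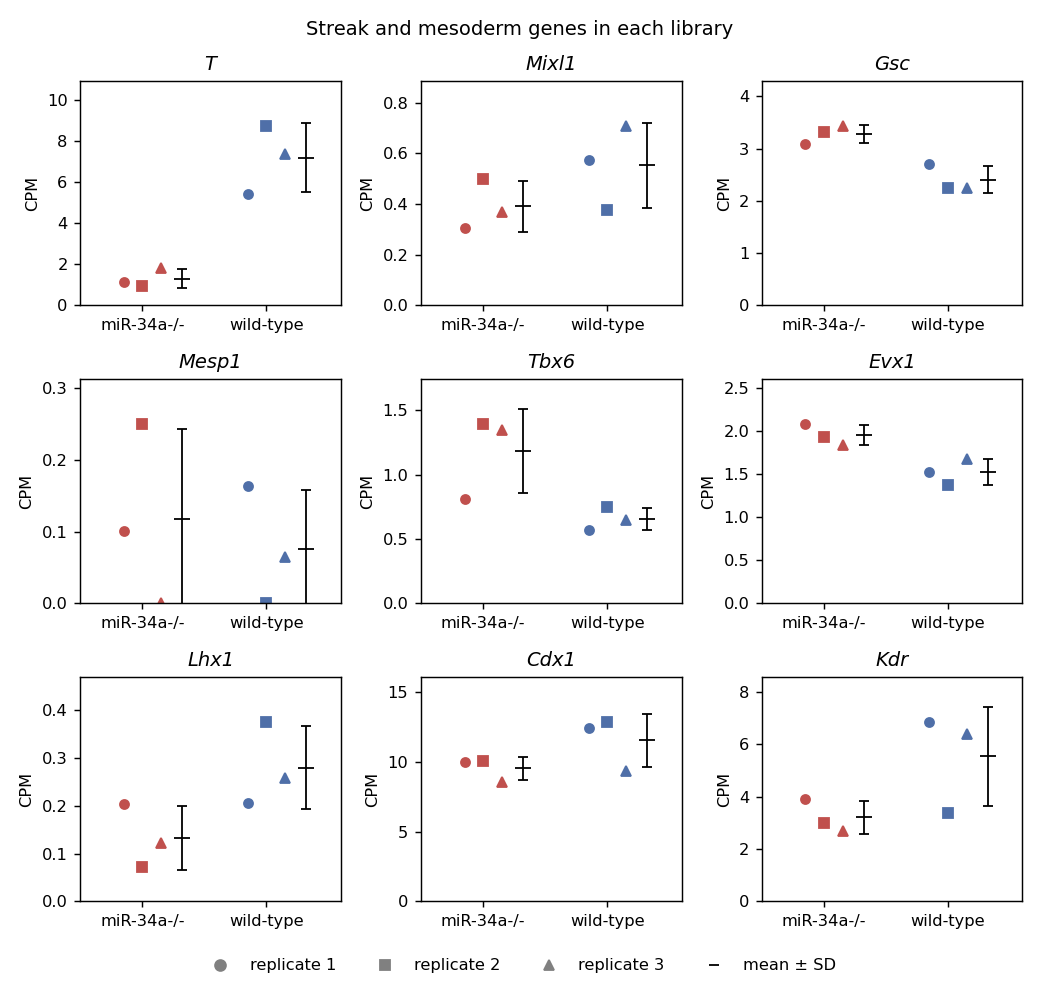
Levels of the 9 regulators in CPM (vertical axes, each from 0 with its own scale) in the 3 miR-34a-/- libraries (left) and the 3 wild-type libraries (right). Points are libraries and black lines are means with SD (cut at 0 for Mesp1), and T lies between 0.930 and 1.84 CPM in miR-34a-/- and between 5.41 and 8.76 CPM in wild-type.

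Tbx6, the T-box factor that directs streak cells to paraxial mesoderm, went the other way at low counts. Tbx6 (ENSMUSG00000030699, chromosome 7, 126781483 to 126785560, plus strand) was at 0.811, 1.39 and 1.35 CPM in miR-34a-/-, against 0.574, 0.751 and 0.644 CPM in wild-type, from 16, 39 and 11 counts against 14, 6 and 10 counts. The groups did not overlap, but the lowest miR-34a-/- line lay just above the highest wild-type line. The log2 fold change was 0.90 (SE 0.324, edgeR adjusted p = 0.027), 1.86-fold higher in miR-34a-/-. That call depended on single libraries: it was lost without miR-34a-/- replicate 2 (log2 fold change 0.64, adjusted p = 0.21), without wild-type replicate 1 (0.78, adjusted p = 0.14) and without wild-type replicate 3 (0.90, adjusted p = 0.061). DESeq2 did not call it either (0.87, adjusted p = 0.20), nor did edgeR after library trends with GC content were removed (0.76, adjusted p = 0.064). With the replicate number as a block the Tbx6 call was lost as well.

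Kdr, the receptor through which VEGF acts on blood and vessel progenitors, was lower in miR-34a-/- with 1 wild-type line apart from the others. Kdr (ENSMUSG00000062960, chromosome 5, 75932827 to 75978458, minus strand) was at 3.90, 3.00 and 2.70 CPM in miR-34a-/-, against 6.85, 3.38 and 6.38 CPM in wild-type. Wild-type replicate 2 lay inside the miR-34a-/- range, while wild-type replicates 1 and 3 lay above it. The means were 3.20 ± 0.627 CPM in miR-34a-/- and 5.54 ± 1.88 CPM in wild-type (SD, n = 3 each), which gave -0.85 on the log2 scale (SE 0.209, edgeR adjusted p = 0.0032), or 1.81-fold lower in miR-34a-/-. The value was -1.02 without wild-type replicate 2 (adjusted p = 0.00012) and -0.67 without wild-type replicate 1 (adjusted p = 0.033), and the call held under all 17 alternatives.

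Gsc, Evx1, Mixl1 and Lhx1 are homeobox genes of the streak and organizer; Gsc and Evx1 were tested and neither was called. Gsc, the goosecoid repressor of the organizer (ENSMUSG00000021095, chromosome 12, 104471209 to 104473330, minus strand), was at 3.09, 3.33 and 3.43 CPM in miR-34a-/-, against 2.71, 2.25 and 2.26 CPM in wild-type. Every miR-34a-/- line was above every wild-type line, yet the difference did not pass the test (log2 fold change 0.40, SE 0.180, edgeR adjusted p = 0.069). It passed in 1 of the 17 alternatives, when all libraries were thinned at random to the shallowest (0.70, adjusted p = 0.030). Groups without overlap were common: 29.2% of tested genes had all miR-34a-/- libraries above all wild-type libraries.

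Evx1, an even-skipped homeobox gene of the posterior streak (ENSMUSG00000005503, chromosome 6, 52313498 to 52318378, plus strand), was at 2.08, 1.93 and 1.84 CPM in miR-34a-/-, against 1.52, 1.38 and 1.68 CPM in wild-type. Here too the lines did not overlap, and the difference did not pass (log2 fold change 0.35, SE 0.218, edgeR adjusted p = 0.19). Evx1 shares 73 exon bases with Evx1os on the other strand, which had 6, 14 and 5 counts in miR-34a-/- and 6, 10 and 4 in wild-type. The sources used here do not say whether counting used the strand, so reads in that stretch could belong to either gene.

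Mixl1 and Lhx1 were too low to be tested. Mixl1, a paired-type homeobox gene of the streak that patterns mesendoderm (ENSMUSG00000026497, chromosome 1, 180693043 to 180697034, minus strand), had 6, 14 and 3 counts in miR-34a-/- and 14, 3 and 11 in wild-type. Pooled over the libraries, the ratio of miR-34a-/- to wild-type was 0.705, with an exact 95% interval of 0.388 to 1.27 that covers counting error only. Lhx1, a LIM homeobox gene needed in the anterior mesendoderm for head formation (ENSMUSG00000018698, chromosome 11, 84518284 to 84525535, minus strand), had 4, 2 and 1 counts in miR-34a-/- and 5, 3 and 4 in wild-type, a ratio of 0.50 (0.167 to 1.38). Both intervals include equal levels and also a fall of the size seen for Kdr, so a difference of that size was not detectable at this depth.

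Mesp1, the bHLH factor of nascent cardiac mesoderm, was nearly undetected. Mesp1 (ENSMUSG00000030544, chromosome 7, 79792241 to 79793788, minus strand) had 2, 7 and 0 counts in miR-34a-/- and 4, 0 and 1 in wild-type, a ratio of 1.54 (0.465 to 5.86). Its close relative Mesp2, a somite segmentation gene, was at 1.83, 2.18 and 3.31 CPM in miR-34a-/-, against 0.697, 1.25 and 1.35 CPM in wild-type (log2 fold change 1.15, edgeR adjusted p = 0.0028). Without wild-type replicate 1 the Mesp2 value was 0.78 (adjusted p = 0.053).

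Cdx1, the caudal homeobox gene that sets posterior Hox expression downstream of Wnt and retinoic acid, was the highest member per length. Cdx1 (ENSMUSG00000024619, chromosome 18, 61018862 to 61036199, minus strand) was at 9.99, 10.1 and 8.58 CPM in miR-34a-/-, against 12.4, 12.9 and 9.34 CPM in wild-type. Wild-type replicate 3 fell within the miR-34a-/- range, and the difference did not pass (log2 fold change -0.24, SE 0.125, edgeR adjusted p = 0.12). It passed as lower in miR-34a-/- without that library (-0.38, adjusted p = 0.012) and with GC trends removed (-0.40, adjusted p = 0.010). Its relative Cdx2, which is also a trophoblast and posterior gene, was lower at under 1 mean CPM in both groups, at 0.324 ± 0.0644 CPM in miR-34a-/- and 0.929 ± 0.0959 CPM in wild-type (SD, n = 3 each; edgeR adjusted p = 0.0019), and passed the filter only through wild-type.

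**Figure D2:**
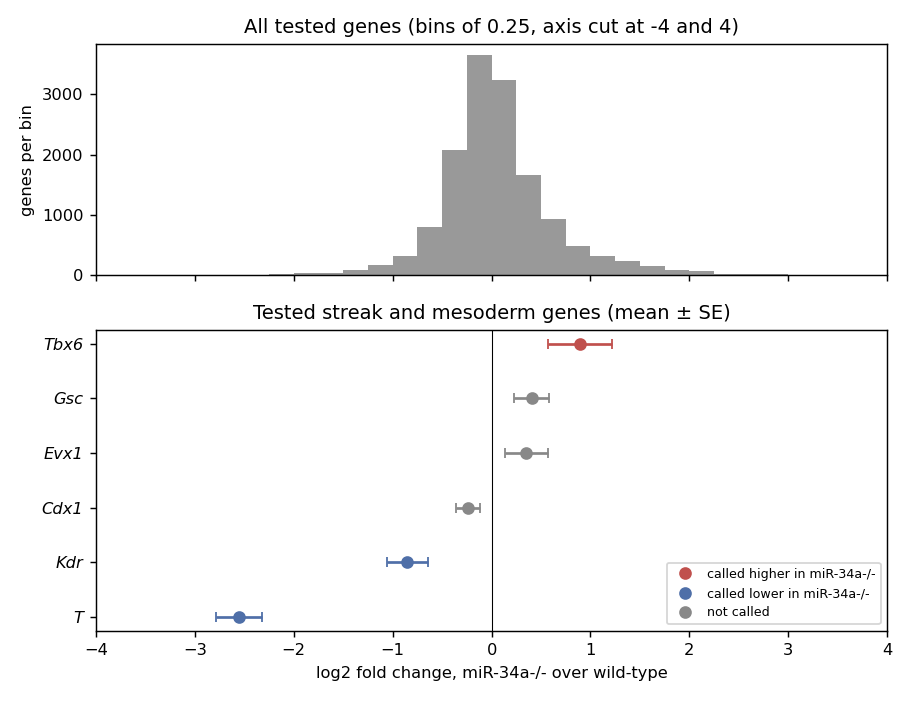
Upper panel, number of tested genes per bin of log2 fold change (miR-34a-/- over wild-type), on an axis that ends at -4 and 4 with 150 genes beyond it. Lower panel, the same quantity with SE for the 6 tested members, where T lies at -2.55, Kdr at -0.85 and Tbx6 at 0.90.

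Divided by exon length, the order of the members differed between the genotypes mainly through T. In miR-34a-/- the mean CPM per kb was 5.46 for Cdx1, 2.59 for Gsc, 0.678 for Evx1, 0.657 for Tbx6, 0.567 for T and 0.355 for Kdr. The values of the 3 lines overlapped between Evx1 and Tbx6, between Tbx6 and T, and between T and Kdr. In wild-type it was 6.60 for Cdx1, 3.11 for T, 1.90 for Gsc, 0.613 for Kdr, 0.529 for Evx1 and 0.364 for Tbx6, where only Kdr and Evx1 overlapped among neighbours. Mixl1, Mesp1 and Lhx1 were at or under 0.170 in miR-34a-/- and at or under 0.241 in wild-type. On this scale 15.4% of tested genes lay below T in miR-34a-/-, against 45.7% in wild-type, while for Gsc the shares were 41.4% in miR-34a-/- and 36.5% in wild-type.

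**Figure D3:**
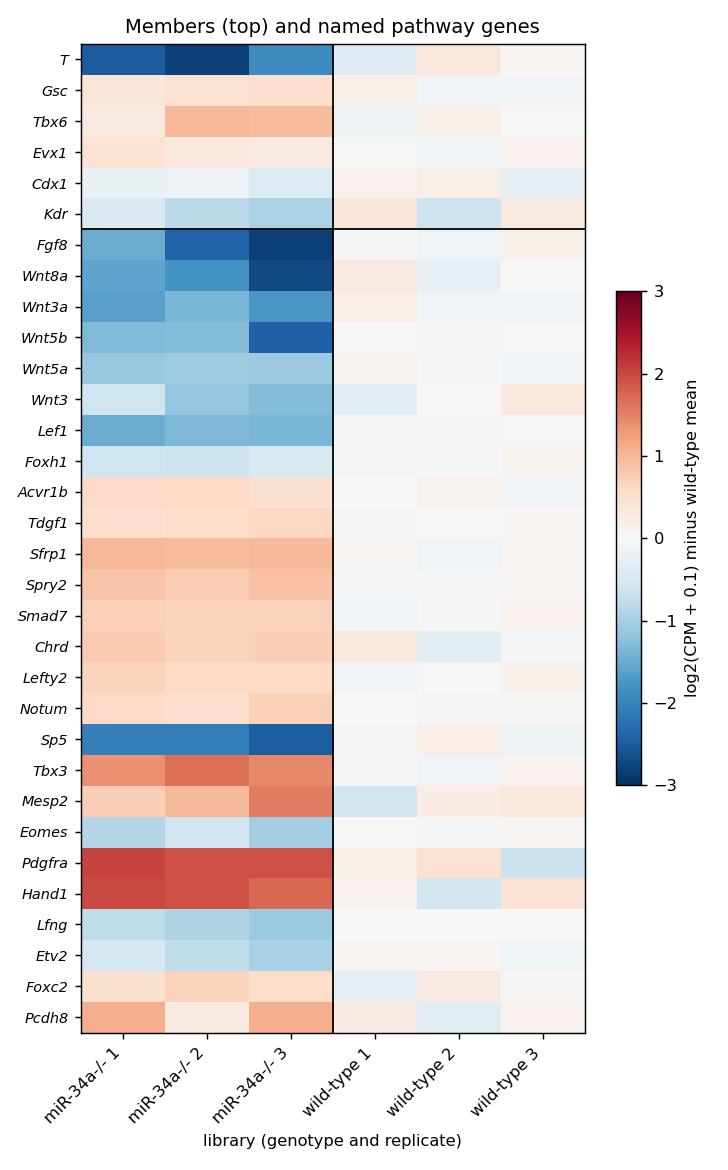
Log2 CPM of each gene minus its wild-type mean (0.1 CPM added, colour scale from -3 to 3), with miR-34a-/- libraries on the left and wild-type libraries on the right. T, Fgf8, Wnt8a and Sp5 are low in all 3 miR-34a-/- libraries, and Pdgfra and Hand1 are high there.

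Listed ligands of the Nodal, BMP, Wnt and FGF families changed in both directions. The list is wider than the ligands that start the streak. Of 14 ligand genes, all tested, 5 were called higher in miR-34a-/-, 7 lower and 2 not, with a median log2 fold change of -0.19. Without 3 that were tested through the genotype in which they were higher, 4 were called higher and 5 lower. Among all tested genes 26.5% were called higher and 24.0% lower. The Wnt ligands that were called, and Fgf8, were on the lower side. Wnt3a, which keeps T on in the tail-end progenitors, was at 1.22, 1.47 and 1.10 CPM in miR-34a-/-, against 4.51, 3.75 and 3.67 CPM in wild-type (log2 fold change -1.62, SE 0.201, edgeR adjusted p = 1.8e-06). Wnt8a was at 1.72, 1.47 and 0.736 CPM in miR-34a-/-, against 6.44, 4.50 and 5.28 CPM in wild-type (-1.96, SE 0.211, adjusted p = 2.9e-07). Fgf8, which cells need to leave the streak, was at 0.761, 0.358 and 0.245 CPM in miR-34a-/-, against 2.26, 2.13 and 2.58 CPM in wild-type (-2.26, SE 0.307, adjusted p = 6.0e-06). In all 3 of these genes each miR-34a-/- line lay under each wild-type line, as in 26.9% of all tested genes. The miR-34a-/- values of Fgf8 rest on 15, 10 and 2 counts. Wnt3, the ligand needed to start the streak, averaged 1.10 ± 0.327 CPM in miR-34a-/- and 2.32 ± 0.551 CPM in wild-type (SD, n = 3 each; log2 fold change -1.0, adjusted p = 0.0041). Wnt5a (-1.13) and Wnt5b (-1.54), ligands that act largely without beta-catenin, were lower too.

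The ligands called higher were Nodal, Bmp4, Bmp2, Fgf4 and Fgf3. Nodal was at 128, 125 and 125 CPM in miR-34a-/-, against 78.1, 76.8 and 77.1 CPM in wild-type (log2 fold change 0.71, SE 0.0532, edgeR adjusted p = 2.0e-09). Both groups were tight, so this difference of 1.63-fold was far larger than the spread between lines. Bmp4 rose by 0.48, Bmp2 by 1.39, Fgf4 by 0.46 and Fgf3 by 0.81 on the log2 scale, while Gdf3, a Nodal-related ligand, fell by 0.36. Fgf8, Wnt5b and Bmp2 were under the filter level of 0.564 CPM in at least 1 library of the genotype in which they were lower, so they were tested through the other one.

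Receptors, co-receptors and signal carriers were called about as often as genes at large. Of 21 genes, 20 were tested, 4 called higher, 6 lower and 10 not, against 50.5% of all tested genes called, with a median log2 fold change of -0.08. Lef1, the LEF/TCF factor that the streak itself expresses, had the largest change of the list, at 13.3, 14.6 and 14.3 CPM in miR-34a-/-, against 36.3, 38.5 and 37.3 CPM in wild-type (-1.4, SE 0.0773, edgeR adjusted p = 2.3e-11). Foxh1, the partner of Smads at Nodal targets, fell by 0.58 (43.1 ± 2.61 CPM in miR-34a-/- and 63.6 ± 3.94 CPM in wild-type; SD, n = 3 each). Of the other LEF/TCF factors, Tcf7 rose by 0.25, while Tcf7l1 fell by 0.14 and Tcf7l2 by 0.23, and each was called. Tdgf1 (Cripto, the Nodal co-receptor) was higher by 0.56 and Acvr1b (the type I receptor ALK4) by 0.57. Ctnnb1, which encodes beta-catenin, had a log2 fold change of 0.00 (SE 0.0539), Smad2 of -0.03 (SE 0.0649) and Smad4 of -0.01 (SE 0.0591), and none of the 3 was called.

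Inhibitors of these pathways were mostly higher in miR-34a-/-. Of 12 genes, 9 were tested, 7 called higher, 1 lower and 1 not, with a median log2 fold change of 0.62. Among all tested genes 26.5% were called higher and 24.0% lower. Among those higher were the Nodal antagonist Lefty2 (250 ± 6.61 CPM in miR-34a-/- and 163 ± 16.8 CPM in wild-type; SD, n = 3 each), the Wnt antagonist Sfrp1 (0.96), the FGF pathway inhibitor Spry2 (0.83), Smad7 (0.70), Notum (0.58) and the BMP antagonist Chrd (0.64). The Chrd call was lost without miR-34a-/- replicate 1 (adjusted p = 0.053), without wild-type replicate 3 (adjusted p = 0.061), with GC trends removed (adjusted p = 0.051) and in DESeq2 (adjusted p = 0.097). Axin2, an inhibitor of Wnt signalling, was the 1 called lower (-0.50, edgeR adjusted p = 0.0005). Its levels were 12.6, 11.8 and 13.7 CPM in miR-34a-/-, against 18.9, 18.8 and 15.5 CPM in wild-type. Nkd1 was the 1 not called (0.04, edgeR adjusted p = 0.92).

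**Figure D4:**
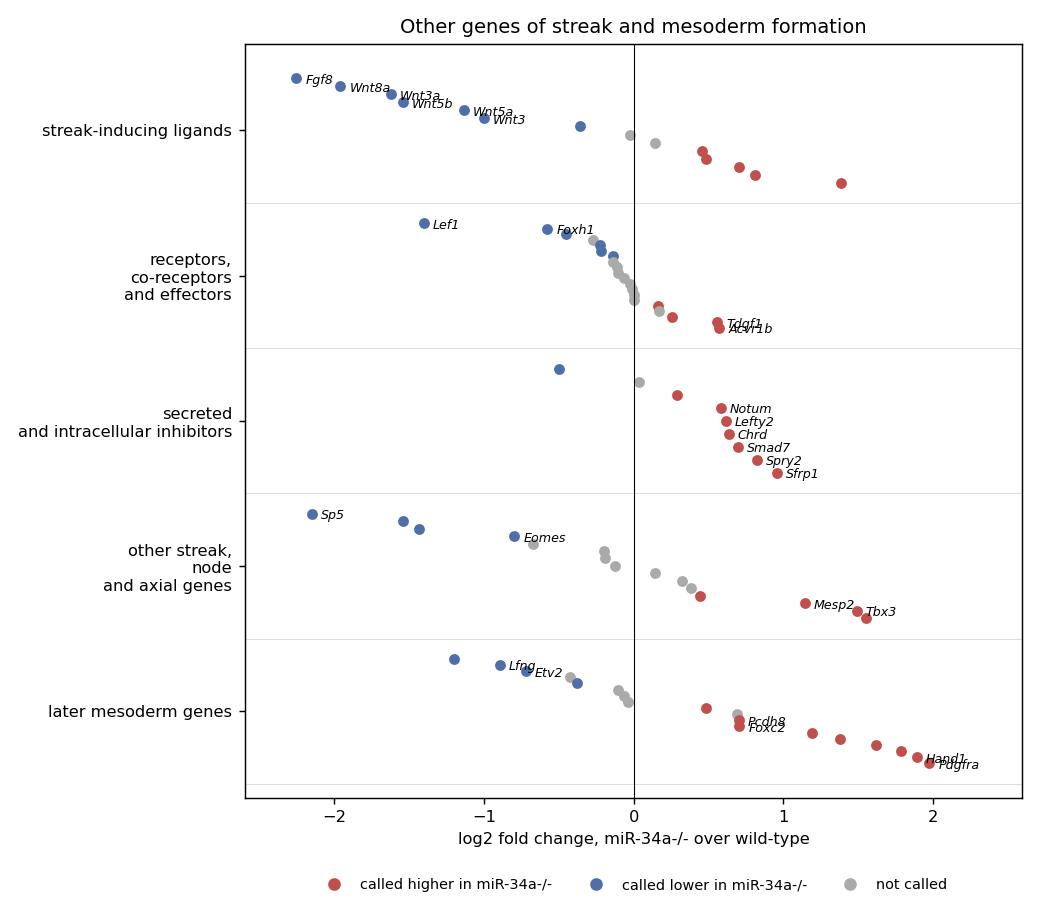
Log2 fold change of miR-34a-/- over wild-type for the tested genes of the 5 pathway lists, coloured by call. Names mark called genes at a mean of at least 1 CPM with an absolute log2 fold change of at least 0.5. At most 6 are named per list, and some larger changes at lower levels are unnamed. Most Wnt ligands, Fgf8, Lef1 and Sp5 lie on the lower side, most inhibitors on the higher side.

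Other genes of the streak, node and axis were divided. Of 21 listed, 15 were tested, 4 called higher, 4 lower and 7 not, with a median log2 fold change of -0.12. The share called was near the 50.5% of all tested genes. In 3 of the 8 called genes (Sox17, Cdx2 and Sp8) at least 1 library of the lower genotype was under the filter level. Without them 3 genes were called higher and 2 lower. Sp5, a zinc finger gene that Wnt signalling turns on beside T in the streak, was at 2.33, 2.29 and 1.72 CPM in miR-34a-/-, against 9.56, 11.5 and 8.96 CPM in wild-type (-2.15, SE 0.157, edgeR adjusted p = 1.3e-09). Eomes, the T-box factor of the early streak and definitive endoderm, was at 7.91, 9.66 and 7.11 CPM in miR-34a-/-, against 14.5, 14.1 and 15.5 CPM in wild-type (-0.80, SE 0.115, adjusted p = 1.2e-05). In both genes each miR-34a-/- line lay under each wild-type line, as in 26.9% of all tested genes. Tbx3, a T-box factor also expressed in naive pluripotent cells, went up to 385 ± 40.8 CPM in miR-34a-/-, against 137 ± 11.5 CPM in wild-type (SD, n = 3 each; 1.49). Among the 4 tested T-box genes named here, T and Eomes were thus lower and Tbx3 and, with the limits given for it, Tbx6 higher.

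Genes of later mesoderm changed in both directions, most of them at a few CPM or less. Of 26 genes, 18 were tested, 9 called higher, 4 lower and 5 not, with a median log2 fold change of 0.59. Among all tested genes 26.5% were called higher and 24.0% lower. In 6 of the 13 called genes, 5 of them called higher (Foxc1, Hand1, Nkx2-5, Mef2c and Lmo2) and 1 lower (Meox1), at least 1 library of the lower genotype was under the filter level. Those genes were tested through the genotype in which they were higher, and without them 4 genes were called higher and 3 lower. Pdgfra, a receptor of paraxial mesoderm that primitive endoderm also expresses, was at 8.67, 7.98 and 8.09 CPM in miR-34a-/-, against 2.34, 2.88 and 1.29 CPM in wild-type (1.98, SE 0.187, edgeR adjusted p = 5.0e-08). Hand1, a bHLH factor of lateral and extra-embryonic mesoderm, averaged 2.45 ± 0.220 CPM in miR-34a-/- and 0.623 ± 0.233 CPM in wild-type (SD, n = 3 each; 1.89, adjusted p = 7.85e-06). Lfng, a Notch modifier of the segmentation clock, fell by 0.89 on the log2 scale. Etv2, the ETS factor upstream of Kdr-positive blood and vessel progenitors, fell by 0.72 (adjusted p = 0.0054), a call lost in DESeq2 (adjusted p = 0.053) and after thinning (adjusted p = 0.13).

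The calls on 2 more genes of that list were lost under several settings. Pcdh8, a protocadherin of paraxial mesoderm, had a value of 0.71 on the log2 scale (edgeR adjusted p = 0.041), and leaving out any 1 library other than miR-34a-/- replicate 2 ended the call (adjusted p from 0.063 to 0.23), as did DESeq2 (adjusted p = 0.12), limma voom (adjusted p = 0.095), GC trends removed (adjusted p = 0.10) and robust = FALSE (adjusted p = 0.053). Foxc2 had a value of 0.71 (adjusted p = 0.026), and its call ended without miR-34a-/- replicate 2 (adjusted p = 0.12) or wild-type replicate 1 (adjusted p = 0.18), in DESeq2 (adjusted p = 0.22) and with GC trends removed (adjusted p = 0.085). Msgn1, Ripply2, Hes7 and Tbx5, which paraxial or cardiac mesoderm would express, were each at or below 0.368 CPM in every library and were not tested. Not all genes of the list were that low. Tcf15, the highest, averaged 41.2 CPM in miR-34a-/- and 29.5 CPM in wild-type (0.49, edgeR adjusted p = 6.6e-06). Nkx2-5 averaged 1.24 CPM in miR-34a-/- and 0.615 CPM in wild-type. Dll1 was called lower, at 12.4 CPM in miR-34a-/- and 15.9 CPM in wild-type, and Gata2 was not called.

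Because these are bulk cultures, fewer cells of a type and less RNA per cell cannot be told apart in any of these differences. Markers of other cell types moved with genotype as well. Their calls stand against 50.5% of all tested genes called, 26.5% higher and 24.0% lower in miR-34a-/-. Of 8 primed epiblast markers, all tested, 1 was called higher in miR-34a-/-, 4 lower and 3 not, and the summed level was 290 to 312 CPM in miR-34a-/-, against 693 to 728 CPM in wild-type. Most of that sum was Dnmt3b, a methyltransferase that rises on the exit from naive pluripotency, at 168 ± 12.0 CPM in miR-34a-/- and 520 ± 26.1 CPM in wild-type (SD, n = 3 each). Fgf5, the usual marker of the primed state, was at 1.93, 1.39 and 2.08 CPM in miR-34a-/-, against 1.93, 2.00 and 3.35 CPM in wild-type, and was not called. Of 15 fibroblast markers, which feeder cells would also supply, 13 were tested, 1 called higher, 10 lower and 2 not. They summed to 386 to 457 CPM in miR-34a-/-, against 621 to 836 CPM in wild-type. Of those called lower, Dcn and Twist2 were under the filter level in at least 1 miR-34a-/- library, so they were tested through wild-type. The part of either cell type in the lower T, Wnt ligands and Kdr was not tested.

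Most tested markers of primitive and visceral endoderm went the opposite way from T. Of 12, 8 were tested and 7 called higher in miR-34a-/-, none lower, against 26.5% of all tested genes called higher. Sox17, 1 of the 7, reached the filter level in no wild-type library and was tested through miR-34a-/-. The 12 genes summed to 200.1 to 221 CPM in miR-34a-/-, against 171 to 199.6 CPM in wild-type. Most of each sum was Lama1, a laminin chain, at 185, 172 and 165 CPM in miR-34a-/-, against 185, 156 and 164 CPM in wild-type, which was not called. Gata4 averaged 6.11 ± 0.419 CPM in miR-34a-/- and 1.80 ± 0.188 CPM in wild-type (SD, n = 3 each), while the visceral endoderm genes Afp and Ttr were at or under 0.082 CPM in every library. Foxa2, too low to be tested, averaged 0.328 CPM in miR-34a-/- and 0.610 CPM in wild-type, the same direction as T. Pdgfra belongs to this list and to the later mesoderm list, and what share of it comes from which cells was not tested. Sox7, also called higher, belongs to the endothelial list too, and Sox17 and Foxa2 to the streak, node and axial list. The counts of these lists are therefore not separate. Neural markers (9 listed, 7 tested, 3 higher and 4 lower) summed to 202 to 213 CPM in miR-34a-/-, against 252 to 266 CPM in wild-type. Pax2, 1 of the neural markers called higher, reached the filter level in no wild-type library and was tested through miR-34a-/-. The 10 pluripotency markers (8 higher, 1 lower, 1 not called) summed to 8612 to 9054 CPM in miR-34a-/-, against 7043 to 7082 CPM in wild-type. Of those called higher, Pou5f1 (Oct4), Sox2 and Klf4 may hold counts from the retroviral copies, and Tdgf1 is also in the receptor list.

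**Figure D5:**
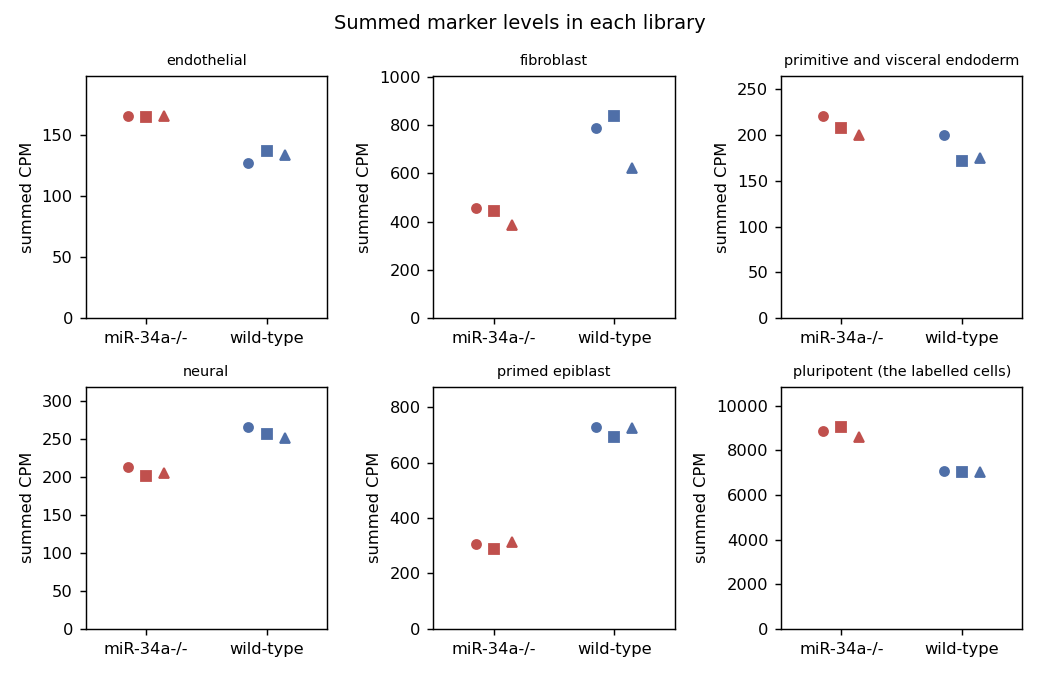
Summed CPM of 6 marker lists in each library, miR-34a-/- left and wild-type right, each panel from 0 with its own scale. The primed epiblast sums are 290 to 312 CPM in miR-34a-/- and 693 to 728 CPM in wild-type.

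Endothelial genes, the later partners of Kdr, did not follow it as a group. Of 15, 11 were tested, 5 called higher in miR-34a-/-, 2 lower and 4 not, against 50.5% of all tested genes called. The sum was 164 to 165 CPM in miR-34a-/-, against 127 to 137 CPM in wild-type. Flt1, the other main VEGF receptor of vessels, was lower with Kdr, at 4.51, 4.11 and 6.25 CPM in miR-34a-/-, against 13.0, 12.5 and 13.7 CPM in wild-type (log2 fold change -1.49, SE 0.134, edgeR adjusted p = 2.4e-08). Flt4, the VEGF receptor of lymphatic vessels, was higher, at 9.47 ± 0.188 CPM in miR-34a-/- and 4.18 ± 0.644 CPM in wild-type (SD, n = 3 each; 1.21). The 3 VEGF receptor genes thus differed in direction. Tie1, an orphan receptor of vessel walls, was at 19.98, 20.6 and 18.6 CPM in miR-34a-/-, against 0.615, 0.125 and 0.258 CPM in wild-type (5.56, adjusted p = 6.8e-14), and it was tested through miR-34a-/-, since only 1 wild-type library reached the filter level. Tie1 also supplied most of the difference between the sums, while Pecam1, the largest single gene in them, was not called. Emcn had no count in any library and Cdh5 (VE-cadherin), the defining junction gene of the endothelium, was at or under 0.736 CPM in every library.

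The 5 tested genes whose pattern over the 6 libraries lay nearest to that of T, by Euclidean distance in centred log2 CPM, were Cnn1 (0.53), Lrrc32 (0.65), Fndc3c1 (0.68), Arsi (0.72) and 2610528J11Rik (0.72). Cnn1, the smooth muscle calponin, was at 4.34 ± 0.975 CPM in miR-34a-/- and 20.2 ± 0.798 CPM in wild-type (SD, n = 3 each). Nearest to Kdr were Gstt1 (0.31), Rimbp2 (0.33), Gm10603 (0.33), Adgrf5 (0.34) and Gm15122 (0.39), each with a lower value in wild-type replicate 2 than in the other wild-type lines. None of these 10 genes is in the streak lists, and the distances carry no test.

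The genes next to the members were read in the same fit. Ppp4c beside Tbx6 was at 189 ± 6.90 CPM in miR-34a-/- and 196 ± 3.19 CPM in wild-type (SD, n = 3 each; log2 fold change -0.05, not called), and Ypel3 on the other side had a value of 0.17 and was not called. Slc6a7 beside Cdx1 was higher in miR-34a-/- (0.53, edgeR adjusted p = 0.015), while Cdx1 itself was not called. Lin9 beside Mixl1 was lower (-0.56, edgeR adjusted p = 0.00014), and Mixl1 was too low to test.

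The missing microRNA pairs with transcripts mainly through bases 2 to 8, its seed, which is capitalised here in the mature form from RefSeq (GRCm38.p6, chr4:150068473-150068494, plus strand) to show what was searched for.
mmu-miR-34a-5p: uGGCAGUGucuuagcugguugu
The DNA letters that pair with that seed, CACTGCC, were in the longest annotated 3′ UTR of 0 of the 9 members, T, Tbx6 and Kdr included. Of the 76 tested genes in the 5 pathway lists 15 had a match (19.7%), against 18.7% of the 13473 tested genes with an annotated 3′ UTR. Of these 15 genes 5 were called higher in miR-34a-/-, 6 lower and 4 not, against 50.5% of all tested genes called. Lef1, the largest change among the signal carriers, had 2 matches and was lower, and its sites are shown because Lef1 encodes a factor that binds the core searched for in the promoters. The sites begin at bases 189 and 328 of a 1290-base 3′ UTR on chromosome 3, and capitals mark the match.
Lef1, first site: cccgaagacacagtCACTGCCacctctt
Lef1, second site: tgcccactgagcggCACTGCCtccggtc
A match is a description of letters and not evidence of binding.

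In the promoter windows printed above, the LEF/TCF core stood once in that of T, at position -234 from the start and on the reverse strand (as TCAAAG), and not in those of Tbx6 or Kdr. Of the 7 members with a promoter sequence, Mesp1 was the other with a core, at positions -72 and -31, although Mesp1 was near 0 in both genotypes. The core is short and was found in 27.6% of 32851 mouse promoter windows of the same length. The T-box letters GGTGTGA (3.3% of windows) and the FOXH1 letters AATCCACA or AATACACA (1.6%) were in none of the 7, and do not overlap the LEF/TCF core letters.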

How the data were processed

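Raw counts per gene, not normalized, were deposited by the authors for 6 poly(A), strand-specific RNA-seq libraries. Alignment and counting to the mm10 build used TopHat2 2.0.11 and featureCounts 1.4.5, per the submitters' processing notes. The sources used here do not give counting options, strand included. A further table has 6 columns that match no label, and these were not used. Of 42290 rows, 902 are repeat families and were left out. Symbols and coordinates came from GENCODE M21 (40254 of 41388 identifiers matched, same build).

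Genes were filtered with filterByExpr, scaled with TMM and tested with edgeR 4.0.16 in R 4.3.3 (quasi-likelihood F test, robust, two-sided, no covariate, Benjamini-Hochberg over 14717 genes, called under 0.05). SE is the absolute log2 fold change over the square root of F. CPM uses TMM-scaled totals. The fit was tested on simulated counts. Alternatives were DESeq2 1.42.0 (test and size factors), limma 3.58.1 voom, library totals, 2 other filters, robust = FALSE, GC trends, thinning, the replicate number as a block, and each library left out. Ratios of pooled counts have exact 95% intervals for counting error only.

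Members, pathway lists and marker lists were chosen with earlier results of these data known. Named pathway genes were called, at a mean of at least 1 CPM, with an absolute log2 fold change of at least 0.5, at most 6 per list. Other genes of the lists were named after their values were seen. Promoter and microRNA sequences are from RefSeq (GRCm38.p6), which held promoters of 7 of the 9 members, and only the 250 bases upstream were used. UTR letters are from the M21 transcripts.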

Additional observations from a re-analysis of the deposited data

How the results depend on the processing

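T and Kdr kept their direction and call under all 17 alternatives. The number of members called higher in miR-34a-/- (1, Tbx6) was 0 with at least 1 CPM in 3 libraries (Tbx6 was then not tested), with the replicate block, with GC trends removed, with both, and in DESeq2, and ranged from 0 to 1 when single libraries were left out. After thinning it was also 1, but the gene was Gsc, and Tbx6 was not tested. Members called lower numbered 2 to 3, the added one being Cdx1. Over all genes 2905 to 4146 were called higher and 2775 to 3948 lower. Receptors and signal carriers called higher numbered 2 with GC trends removed (4 otherwise reported), and called lower 3 in DESeq2 and without miR-34a-/- replicate 1, miR-34a-/- replicate 3 or wild-type replicate 2 (6 reported). Streak, node and axial genes called lower numbered 2 after thinning (4 reported). Later mesoderm genes called higher numbered 5 after thinning, in DESeq2 and without wild-type replicate 1 (9 reported), and called lower 1 after thinning and 2 in DESeq2 or without wild-type replicate 1 (4 reported). The cause of these shifts was not tested.

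Same-numbered libraries deviated together with r of 0.23, -0.01 and 0.22 over 10260 genes, against -0.26 to 0.13 for libraries of different number. Replicates 1 and 3 thus lay above every differently numbered pair, and replicate 2 did not. The check could not decide whether the numbers pair the lines, and the main fit used no block. The extraction notes speak of 3 pairs without saying what a pair shares. With the replicate block 0 members were called higher (Tbx6 at 0.78 on the log2 scale, adjusted p = 0.058) and 3 lower (Cdx1 was added at -0.28, adjusted p = 0.034), and 4055 genes were called higher and 3779 lower. The Foxc2 call was also lost with GC trends removed and the block together (adjusted p = 0.15). Depth limits Mixl1, Mesp1 and Lhx1, which had 28 counts or fewer per genotype. DESeq2 was run on the genes past the same filter.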
